A study of Drosophila melanogaster with 6 samples.

Results

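The lipoprotein receptor family of Drosophila melanogaster was followed through 6 genes, LRP1, LpR1, LpR2, mgl, arr and yl, chosen by symbol from the 14138 named rows of an expression table. All 6 were found. RNA came from olfactory projection neurons, the neurons that receive odour input in the antennal lobe and send it to higher brain centres. One group of 3 libraries was collected 36 h after puparium formation (36 h APF, called development) and another group of 3 from adults at 5 days. Every fly was untreated and kept at 25 °C, and about 2000 cells per library were sorted by a GFP marker before SMART-seq2, a full-length cDNA method. The sources used here do not give the driver of the GFP, the sex of the flies or the number of animals per library. Values are CPM, the reads of a gene out of each 1000000 that fell on genes of the table.

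Members of this family carry cysteine-rich ligand-binding repeats outside the cell, bind lipoproteins and other ligands, and are taken up through clathrin-coated pits, so that cargo is released in endosomes and the receptor can return to the surface. LRP1 is the fly relative of a large mammalian endocytic receptor and has been studied as a surface protein needed for the targeting of projection neuron dendrites. LpR1 and LpR2 bind lipophorin, the lipoprotein of insect hemolymph. The gene mgl encodes the fly megalin, arr encodes the co-receptor of the Wnt protein Wingless, and yl encodes the yolk protein receptor of the oocyte.

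LRP1 (FBgn0053087) lies on 2R at 8174165 to 8226438 on the plus strand in BDGP6.54 (Ensembl release 115), with a longest annotated protein of 4752 residues. Close to it in size is mgl (FBgn0261260, X, 9358496 to 9500129, minus strand), at 4769 residues. LpR2 (FBgn0051092, 3R, 25698727 to 25740465) and LpR1 (FBgn0066101, 3R, 25741348 to 25763105) are neighbours on the minus strand, 882 bases apart with 0 annotated genes between them, and encode proteins of 1064 and 1076 residues. The arr gene (FBgn0000119, 2R, 13453640 to 13483229, minus strand) encodes 1678 residues and yl (FBgn0004649, X, 14193214 to 14199958, plus strand) 1984. At most 1.56% of the exonic bases of any of the 6 genes overlap another gene. The sources used here do not say how reads matching both LpR1 and LpR2 were counted.

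Between 18602612 and 42217764 reads per library were recovered from the values. The labels do not state that libraries of 1 group are separate sorts or animals, so each p-value below is set against a spread between libraries that may be technical. Of 16 markers of neurons and projection neurons, 15 reached 1 CPM in at least 1 library, brp being the most abundant over all 6 libraries, and the sum of the list was 5358 to 7012 CPM in development and 6970 to 7331 CPM in adult. The marker en stayed below 1 CPM throughout. This sum, too, hides changes in both directions. The means of ChAT and nSyb went from 43.8 and 1299 CPM in development to 569.2 and 2218 CPM in adult. Those of the transcription factor genes unpg and kn went from 72.44 and 764.8 to 27.5 and 467 CPM. The 13 glia markers summed to 326 to 371.1 CPM in development and 525.4 to 667.6 CPM in adult, nrv2 being the most abundant over all libraries and Gs2 in adult, and the defining glial gene repo had 0.7526 to 0.9313 and 0.8114 to 1.343 CPM. Other glia markers moved both ways. From development to adult the means of Gs2 and Tret1-1 went from 50.88 and 1.656 to 333.5 and 17.12 CPM. Those of nrv2 and Mdr65 went from 243.3 and 5.564 to 194.6 and 0.9079 CPM. Fat body markers summed to 72.13 to 110.6 and 70.61 to 96.54 CPM, with Adh below 1 CPM in every library. These sums hide opposite changes within the list. From development to adult the means of Fbp1 and Lsp1beta went from 25.52 and 8.457 to 2.051 and 0.04889 CPM. Those of Yp1 and Yp3 went from 0.2515 and 1.207 to 18.4 and 26.45 CPM. Hemocyte markers summed to 427.7 to 540.2 and 322.9 to 350.1 CPM, mostly Pxn, with NimC1, srp and eater below 1 CPM. The mean of Pxn went from 410.5 CPM in development to 238.7 CPM in adult, and that of crq went the other way, from 47.34 to 87.19 CPM. Olfactory receptor neuron markers summed to 2.113 to 4.464 and 23.71 to 37.76 CPM, the adult sum being mostly Orco, and 6 of these 8 markers stayed below 1 CPM. Muscle markers summed to 12.82 to 14.35 and 3.022 to 9.442 CPM, Mlc2 being the most abundant over all 6 libraries, with wupA and Act88F below 1 CPM, and ovary and follicle cell markers to at most 1.509 CPM in any library. The part of such RNA in the receptor values was not tested.

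LRP1 fell from development to adult, and it was the member whose 3 adult libraries all lay below its 3 development libraries. Among the 5 members tested, LRP1 and mgl passed as lower in adult, while LpR1, LpR2 and arr did not pass. Tested were genes with at least 5 CPM in at least 3 of the 6 libraries, using limma on log2(CPM + 1) with Benjamini-Hochberg adjustment over all 6814 genes tested and a threshold of 0.05. By this rule 65.1% of all tested genes changed, 27.2% higher and 37.9% lower in adult, so 2 of 5 members called is not more than the background. Over all tested genes the log2 fold change had a median of -0.153. With each library rescaled by the median of its ratios, that median was -0.007.

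The level of LRP1 was 150.5, 145.0 and 158.1 CPM in development replicates 1, 2 and 3, and 91.67, 92.6 and 83.75 CPM in the adult replicates. The lowest development library stood well above the highest adult one, and the libraries of each group lay close together. The mean went from 151.2 ± 6.63 to 89.34 ± 4.862 CPM (SD, n = 3 each), a 1.692-fold lower level in adult. The log2 fold change was -0.75 ± 0.113 (SE; limma, adjusted p = 5.384e-05), with a 95% interval of -1.0 to -0.51. Relative to the median of all tested genes the change was -0.60. In bulk libraries, fewer cells expressing a gene and less of its RNA per cell cannot be told apart. The fall of LRP1 was of ordinary size here, since 25.6% of tested genes had a lower log2 fold change. Its within-group SD of 0.071 on the log2(CPM + 1) scale was smaller than that of most genes, with 4.2% of tested genes below it. LRP1 passed in each of the 18 alternative fits, with log2 fold changes from -0.78 to -0.60. LRP1 was the 1 of 5 tested members whose groups did not overlap. Among all tested genes, 69% had groups that did not overlap, 28.8% with adult above and 40.2% with adult below.

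**Figure D1:**
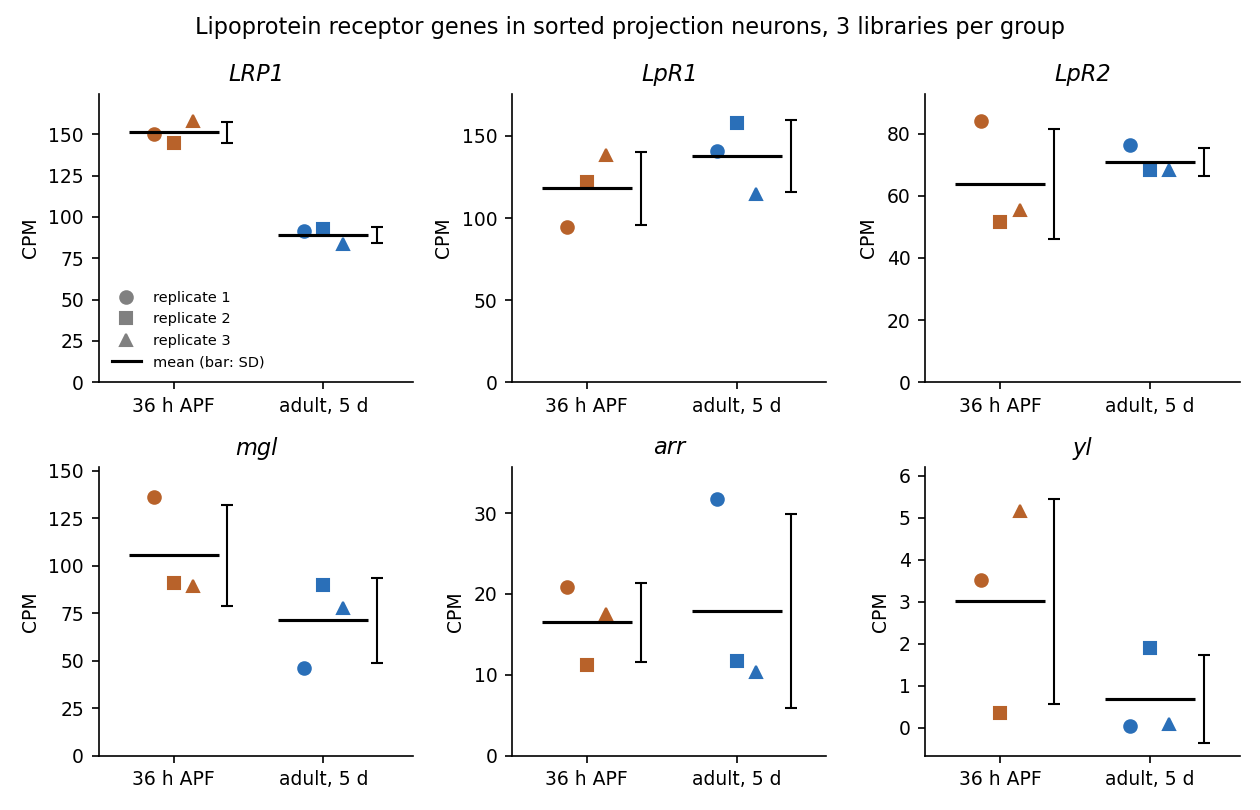
CPM of the 6 receptor genes in each library, by group, with a separate vertical axis for each gene. Symbols mark the replicate number, horizontal lines the group mean and bars the SD of 3 libraries. The groups of LRP1 are separated, with development at 145.0 to 158.1 and adult at 83.75 to 92.6 CPM, while those of the other genes overlap.

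The megalin gene mgl, the other very large receptor, had 136.2, 91.02 and 89.29 CPM in the development replicates and 46.31, 89.91 and 77.6 CPM in the adult ones. Development replicate 1 was the highest library and adult replicate 1 the lowest, and the remaining 4 libraries lay between 77.6 and 91.02 CPM with the groups overlapping. The mean went from 105.5 ± 26.61 to 71.28 ± 22.48 CPM (SD, n = 3 each). The log2 fold change was -0.58 ± 0.224 (SE; limma, adjusted p = 0.0341), with a 95% interval of -1.07 to -0.10. This call rested on those libraries and on the scaling. Without development replicate 1 the log2 fold change was -0.39 (limma, adjusted p = 0.145), without adult replicate 1 it was -0.30 (0.1751), and without both it was -0.11 (0.4768). With median of ratios scaling it was -0.43 (0.1051) and with quantile normalization -0.47 (0.08252). The call also ended with array weights, without a trend in the variance and with no filter. Over the 18 alternatives the adjusted p ran from 0.009435 to 0.4768.

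The lipophorin receptor LpR1 had 94.48, 121.8 and 138.4 CPM in the development replicates and 141.1, 157.7 and 114.4 CPM in the adult ones. Each group spanned a wide range and the ranges overlapped between 114.4 and 138.4 CPM. The means were 118.2 ± 22.17 and 137.7 ± 21.83 CPM (SD, n = 3 each), and the log2 fold change of 0.22 ± 0.157 (SE) did not pass (limma, adjusted p = 0.2257). Its 95% interval of -0.12 to 0.56 leaves out a fall as large as that measured for LRP1. The estimate moved with single libraries, to 0.072 without development replicate 1 and 0.12 without adult replicate 2 (limma, adjusted p = 0.6632 and 0.5696). It rose to 0.345 without development replicate 3 and 0.35 without adult replicate 3 (limma, adjusted p = 0.09467 and 0.08499). In none of the 18 alternative limma fits did LpR1 pass, the lowest adjusted p being 0.05294 with median of ratios scaling.

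Its neighbour LpR2 had 84.17, 51.62 and 55.48 CPM in the development replicates and 76.27, 68.24 and 68.48 CPM in the adult ones. Development replicate 1 was the highest of all, above every adult library, and development replicates 2 and 3 were below every adult library. The means were 63.75 ± 17.79 and 71.0 ± 4.567 CPM (SD, n = 3 each), and the log2 fold change was 0.18 ± 0.175 (SE; limma, adjusted p = 0.3669), with a 95% interval of -0.19 to 0.56. Without development replicate 1, LpR2 passed as higher in adult, with a log2 fold change of 0.40 (limma, adjusted p = 0.01913). It also passed with array weights (0.35, adjusted p = 0.03853) and without both libraries numbered 1 (0.35, adjusted p = 0.04869), so the absence of a call for LpR2 turns on that library. Development replicate 1 also differed from its group over 9799 or more genes. Chi-square of recovered reads per degree of freedom was 68.01 and 55.81 against replicates 2 and 3, and 17.04 between those. Pairs of adult libraries had 41.95 to 60.38. Depth also enters this measure, and the reason for the difference was not tested.

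The Wingless co-receptor arr was detected at a low level, with 20.87, 11.23 and 17.47 CPM in the development replicates and 31.76, 11.66 and 10.3 CPM in the adult ones. Adult replicate 1 stood apart, at 1341 recovered reads, and its exact Poisson interval of 30.09 to 33.51 CPM, which covers counting error alone, did not reach that of any other library. The means were 16.53 ± 4.89 and 17.91 ± 12.02 CPM (SD, n = 3 each). The log2 fold change was -0.03 ± 0.354 (SE; limma, adjusted p = 0.9525), and the 95% interval of -0.79 to 0.74 is too wide to exclude a change of the size seen for LRP1. Without adult replicate 1 the log2 fold change was -0.51 (limma, adjusted p = 0.1193), and leaving out each other library in turn gave values up to 0.258. Within-group SDs of arr and mgl, 0.67 and 0.425 on the log2(CPM + 1) scale, were larger than those of most genes, with 98.7% and 92.5% of tested genes below them. In adult replicate 1, where arr was highest and mgl lowest, LRP1 stood at 91.67 CPM, between its other adult libraries.

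The yolk protein receptor yl was close to the detection limit and was not tested. It had 3.533, 0.3474 and 5.161 CPM in the development replicates and 0.04737, 1.892 and 0.09836 CPM in the adult ones. A single library reached 5 CPM, and the groups overlapped, since adult replicate 2 was above development replicate 2. These values rest on 110, 12 and 96 recovered reads in development and 2, 62 and 4 in adult. The exact Poisson intervals were 2.903 to 4.258 CPM for development replicate 1 and 0.1795 to 0.6068 CPM for development replicate 2, so libraries of 1 group differed by more than counting error. In adult, the interval of replicate 2, 1.451 to 2.426 CPM, likewise lay above that of replicate 1, 0.005737 to 0.1711 CPM.

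**Figure D2:**
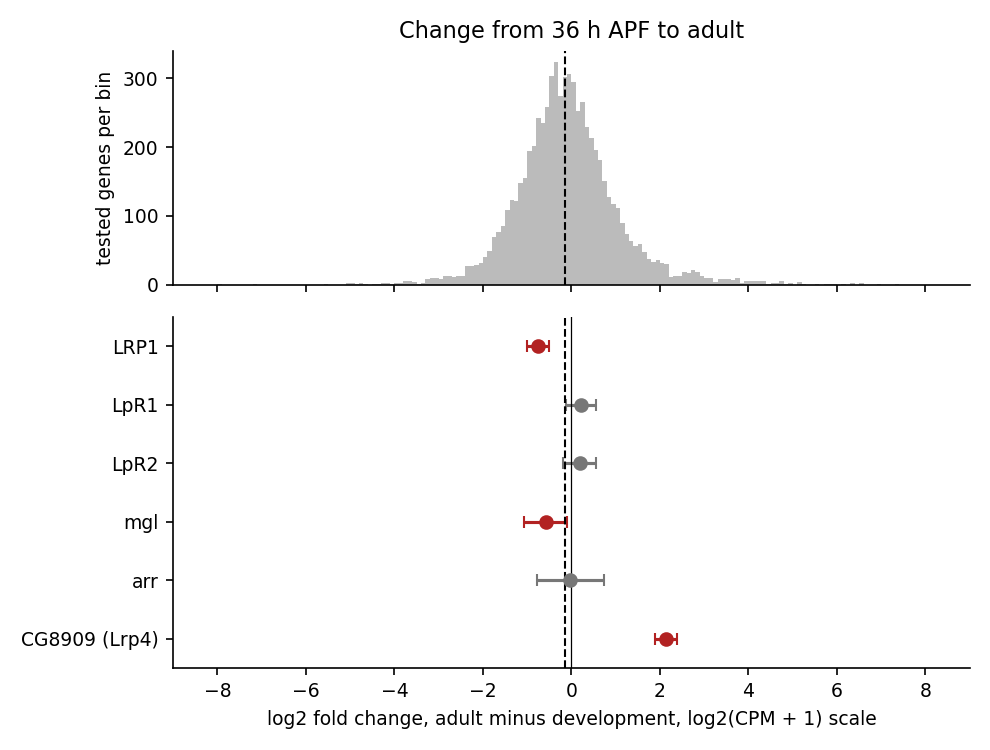
Upper panel, distribution of log2 fold changes (adult minus development, log2(CPM + 1) scale) over the 6814 tested genes. Lower panel, the 5 tested receptor genes and CG8909 (Lrp4), with 95% intervals and red for an adjusted p under 0.05. The dashed line is the median of all tested genes at -0.153, and LRP1 at -0.75 and CG8909 at 2.14 lie on opposite sides of it.

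Levels of different genes were compared as CPM per 1000 bases of merged exons. On that scale the order was LpR1, LpR2, LRP1, mgl, arr and yl in both groups. In development the means were 17.81 ± 3.339 for LpR1, 11.57 ± 3.228 for LpR2, 9.577 ± 0.42 for LRP1, 5.97 ± 1.506 for mgl, 2.743 ± 0.8117 for arr and 0.4745 ± 0.3855 CPM per 1000 bases for yl (SD, n = 3 each). LpR1 and LpR2 overlapped there, as did LpR2 and LRP1, so these neighbours were not separated by their spread. In adult, LpR1 had 20.74 ± 3.289, LpR2 12.89 ± 0.8289, LRP1 5.659 ± 0.308, mgl 4.033 ± 1.272, arr 2.973 ± 1.995 and yl 0.107 ± 0.1654 CPM per 1000 bases. The ranges of LpR1, LpR2 and LRP1 no longer overlapped, and those of mgl and arr did, arr being above mgl in adult replicate 1. Per 1000 coding bases the order was the same in both groups. In development LpR1 (29.27 to 42.86), LpR2 (16.17 to 26.37) and LRP1 (10.17 to 11.09) then did not overlap. Distances between genes thus depend on the length chosen. Isoform use and the evenness of reads along these transcripts were not examined.

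The sum of the 6 genes was 48.15 ± 3.652 CPM per 1000 bases in development and 46.4 ± 4.614 in adult (SD, n = 3 each), and the groups overlapped. The share of LRP1 in that sum was 18.77%, 20.88% and 20.16% in the development replicates and 11.9%, 11.89% and 12.91% in the adult ones. All adult libraries were below all development libraries. The mean share went from 19.94% ± 1.071 to 12.24% ± 0.5877 (SD, n = 3 each). LpR1 and LpR2 together made up most of the sum, with mean shares of 37.24% and 23.88% in development and 44.55% and 27.91% in adult. In development replicate 1 the share of LpR1 was low, at 28.03%, and those of LpR2 and mgl were high, at 30.09% and 15.18%. With coding length in place of exon length, the share of LRP1 was 13.55% and 7.88%.

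**Figure D3:**
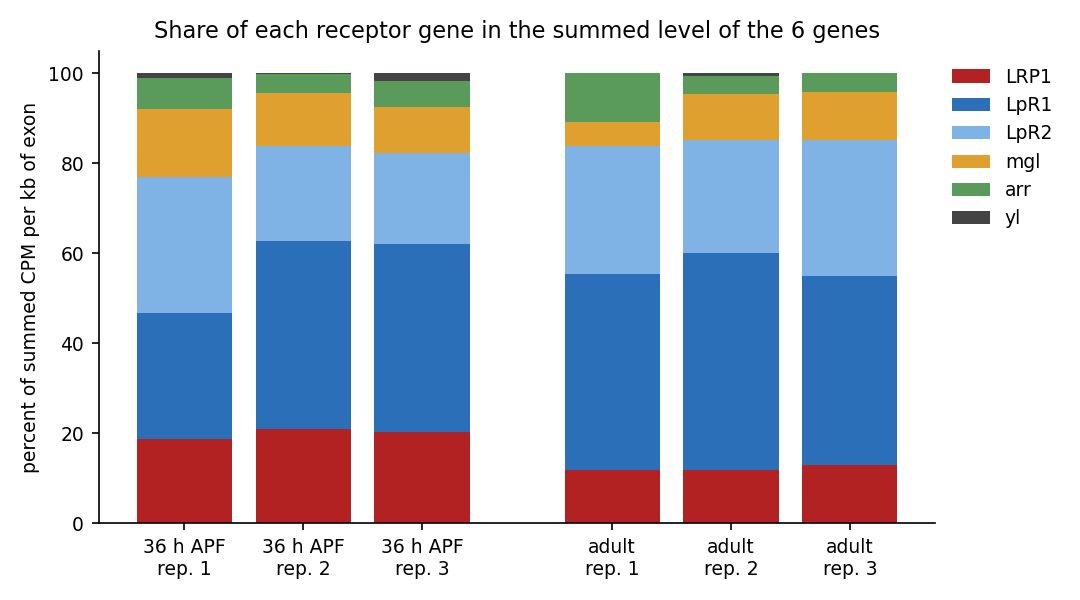
Share of each receptor gene in the sum of CPM per 1000 exon bases over the 6 genes, in percent, for each library. LRP1, at the bottom of each bar, holds 18.77% to 20.88% in the development libraries and 11.89% to 12.91% in the adult libraries.

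Ratios between genes within a library ask whether members changed by different amounts, and do not depend on how libraries were scaled against each other apart from the pseudocount. The log2 ratio of LRP1 to LpR1 was 0.67, 0.25 and 0.19 in the development replicates and -0.62, -0.76 and -0.44 in the adult ones. LRP1 was thus above LpR1 in every development library and below it in every adult library on the CPM scale, which is not corrected for length. The mean ratio changed by -0.98, without overlap of the groups (exact two-sided permutation test, p = 0.1, adjusted p = 0.3333). The log2 ratio of LRP1 to LpR2 changed by -0.94, from 1.27 ± 0.377 to 0.33 ± 0.093 (SD, n = 3 each; exact two-sided permutation test, p = 0.1, adjusted p = 0.3333). The ratio of LpR2 to mgl changed by 0.77, and it too did not overlap (exact two-sided permutation test, p = 0.1, adjusted p = 0.3333). Without adult replicate 1, where mgl was lowest, that change was 0.438.

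With 3 libraries against 3 this test cannot give a p below 0.1, so none of the 10 pairs could reach 0.05, and p-values were adjusted over these 10. The log2 ratio of LRP1 to mgl changed by -0.17, from 0.54 ± 0.354 to 0.37 ± 0.518 (SD, n = 3 each), with overlapping groups (exact two-sided permutation test, p = 0.8, adjusted p = 0.8889). This change depended on single libraries, at -0.467 without adult replicate 1, -0.368 without development replicate 1 and -0.003 without adult replicate 2. The ratio of LpR1 to LpR2, the neighbouring pair, was 0.90 ± 0.635 and 0.94 ± 0.237, a change of 0.04 (exact two-sided permutation test, p = 1, adjusted p = 1). In development replicate 1 that ratio was 0.17, against 1.22 and 1.30 in replicates 2 and 3, and without that library the change was -0.328. Groups of 3 pairs did not overlap. With 1 library left out, the number was 5 without development replicate 1 and 6 without adult replicate 1. It was 4 without replicate 3 of either group and 3 without replicate 2 of either group. Smaller groups can separate more readily, and the reason for these differences was not tested. The share of pairs without overlap among other genes was not computed, so the count is not a result about the members.

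**Figure D4:**
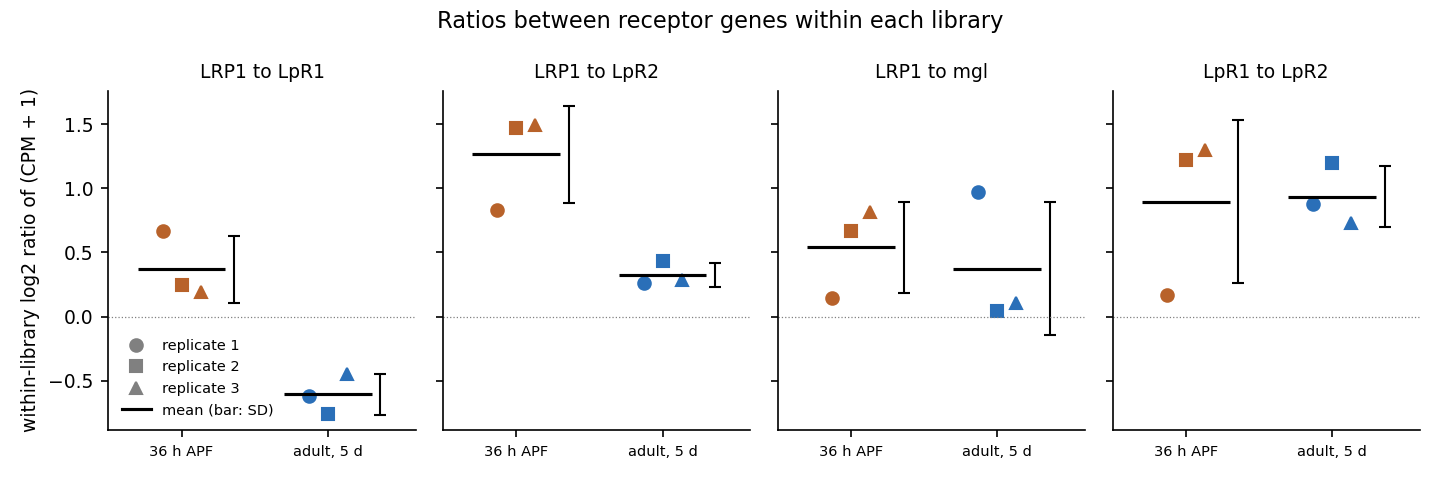
Within-library log2 ratios of (CPM + 1) for 4 pairs of receptor genes, by group. Symbols mark the replicate number, horizontal lines the mean and bars the SD of 3 libraries. LRP1 lies above LpR1 in development (0.19 to 0.67) and below it in adult (-0.76 to -0.44), while LpR1 to LpR2 overlaps between groups.

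The genes with profiles nearest to LRP1 over the 6 libraries were Vps37B, sick, AdipoR, MED6 and Spf45, out of 3263 candidates. Candidates were tested and averaged 20 CPM or more over the libraries, leaving out the receptor genes themselves, symbols of the CG- and CR-numbered kind and noncoding RNA symbols. Likeness was the Euclidean distance between log2(CPM + 1) values, each gene being centred on its own mean, and ran from 0.081 for Vps37B to 0.148 for Spf45. Vps37B, which encodes a subunit of an endosomal sorting complex, went from 79.69 ± 3.597 to 46.65 ± 2.66 CPM (SD, n = 3 each). Of its exonic bases 19.5% lie opposite Kat60, and whether strand was used in counting is unknown here, so its value is uncertain. Of the exonic bases of MED6, 16.31% lie opposite other genes, and the same holds for it. AdipoR, the adiponectin receptor relative, went from 671.2 ± 34.29 to 407.9 ± 11.35 CPM, and sick from 358.7 ± 12.1 to 208.4 ± 5.544 CPM.

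Of 10 other genes listed for receptor repeats of this family 7 were tested, and 4 rose and 1 fell in adult (limma, each at an adjusted p under 0.05). The share called was 71.4%, near the 65.1% of all tested genes, so this count is not a result about the list. Its median log2 fold change was 1.05, against -0.153 for all tested genes. One of the risers, CG17352, was tested through its adult libraries alone, so its change follows from the filter. The relative most often studied at fly olfactory synapses, Lrp4 (CG8909 in the table, X, 15910870 to 15921013), had 142.8, 168.3 and 175.0 CPM in the development replicates and 630.1, 765.2 and 751.9 CPM in the adult ones. All adult libraries stood far above all development libraries. The mean rose 4.417-fold, from 162.0 ± 16.96 to 715.8 ± 74.49 CPM (SD, n = 3 each), and the log2 fold change was 2.14 ± 0.114 (SE; limma, adjusted p = 2.378e-09). Per 1000 exon bases Lrp4 had 20.95 ± 2.193 CPM in development and 92.56 ± 9.633 in adult, against 9.577 and 5.659 for LRP1. The gene cue, which encodes a membrane protein with receptor propeller repeats, rose from 56.58 ± 8.427 to 125.0 ± 13.03 CPM. CG34353 fell from 592.2 ± 24.35 to 382.3 ± 17.09 CPM, but the annotation used here holds no protein domains, so its place in the list was not checked.

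Chaperones, adaptors and partners of the receptors moved both ways, with 4 of 9 tested genes higher and 1 lower in adult (limma, adjusted p under 0.05) and a median log2 fold change of 0.28. The share called, 55.6%, was not above that of all tested genes, so the count is not a result about the list. CG32758 (Snx27), among the 4, was tested through its adult libraries alone. The chaperone gene boca, needed in flies for receptors of this family to reach the surface, had 29.99, 32.13 and 35.59 CPM in the development replicates and 15.82, 15.63 and 17.26 CPM in the adult ones. The groups did not overlap, and boca fell by 0.96 ± 0.175 on the log2(CPM + 1) scale (SE; limma, adjusted p = 0.0002808). CG8507, the relative of the mammalian receptor-associated protein, another chaperone of the family, did not pass (log2 fold change -0.10 ± 0.147; limma, adjusted p = 0.5897). CG5734 (Snx17), whose mammalian counterpart sorts LRP1 back from endosomes to the surface, had 122.7, 86.85 and 91.76 CPM in the development replicates and 435.0, 446.9 and 422.5 CPM in the adult ones. It rose by 2.12 ± 0.129 on the log2 scale (SE; limma, adjusted p = 8.743e-09). X11Lbeta, an adaptor gene of the Mint family, rose from 72.26 ± 8.235 to 123.9 ± 9.533 CPM. The adaptor gene Dab had 142.6, 111.5 and 138.4 CPM in development and 165.9, 116.6 and 114.9 CPM in adult, which did not pass (limma, adjusted p = 0.9783).

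The list of lipoproteins, lipid-transfer proteins and lipocalins is not one of ligands alone. Most of its genes were low, NLaz being the highest in both groups. The precursor of lipophorin, Rfabg (apolpp), had 16.76, 23.85 and 15.21 CPM in development and 11.58, 13.58 and 14.16 CPM in adult, which did not pass (limma, adjusted p = 0.08505). The lipid transfer gene Mtp, which loads lipid onto lipoproteins, fell from 41.95 ± 4.004 to 11.21 ± 6.033 CPM, and the lipocalin gene NLaz rose from 81.44 ± 7.315 to 165.5 ± 9.323 CPM. Of 8 tested genes in this list 5 were higher and 2 lower in adult (limma, adjusted p under 0.05), a share of 87.5% against 65.1% of all tested genes. However, Apoltp, Nplp2, Yp1, Yp2 and Yp3 passed the filter through a single group, so their differences follow from it. The yolk protein genes, ligands of yl that are known as products of the female fat body, had at most 1.998 CPM in development and 15.71 to 32.88 CPM in adult. The fat body marker Lsp2 went from 11.66, 20.03 and 18.76 CPM in development to at most 0.06104 CPM in adult, and the part of fat body RNA in these values was not tested.

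Genes of clathrin-mediated uptake rose in 8 of 18 cases and fell in 3 (limma, adjusted p under 0.05), with a median log2 fold change of 0.26. The share called was 61.1%, near that of all tested genes, so the number of changed genes is not a result about the list. The dynamin gene shi rose from 852.0 ± 215.7 to 3625 ± 121.1 CPM and Synj, the synaptojanin gene, from 62.49 ± 11.13 to 185.0 ± 7.215 CPM. Chc, the clathrin heavy chain gene, fell from 105.3 ± 3.818 to 71.4 ± 8.635 CPM. Hsc70-4, which encodes a chaperone that strips clathrin coats, fell from 3381 ± 198.3 to 1520 ± 120.7 CPM, though related heat shock cognate genes leave its level uncertain. Of 25 genes of endosomal sorting and recycling, 12 fell and 3 rose, a share of 60% that was again near the background, with a median of -0.32. With median of ratios scaling 7 fell and 4 rose, and with quantile normalization 8 fell and 4 rose. Rab11, the recycling GTPase gene, fell from 77.19 ± 8.385 to 29.22 ± 4.273 CPM and Vps33B from 47.95 ± 6.953 to 14.15 ± 5.56 CPM. The lysosomal tethering gene car rose from 55.22 ± 14.56 to 118.8 ± 9.969 CPM, and Lerp, a lysosomal enzyme receptor gene, from 38.29 ± 7.839 to 69.22 ± 5.513 CPM (SD, n = 3 each throughout).

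Around arr, genes of Wnt signalling fell in 10 of 17 tested cases and rose in 1 (limma, adjusted p under 0.05), with a median log2 fold change of -0.79. The share called was 64.7%, close to the 65.1% of all tested genes, so the number of changed genes is not a result about the list. Of all tested genes 37.9% were lower, and whether the list leans further towards falls was not tested. The chaperone gene boca, described above, is also 1 of these 10 falls. The gene dlp, among the falls, was tested through its development libraries alone. The receptor genes fz and fz2, which act with arr, had log2 fold changes of -1.21 ± 0.186 and -1.20 ± 0.235 (SE), both past the threshold, while arr itself did not pass. The Wnt secretion genes por and wls fell by 2.32 ± 0.203 and 1.65 ± 0.126. Of the exonic bases of por, 14.74% lie opposite CrebB, so its value is uncertain. Apc rose from 59.95 ± 23.64 to 114.5 ± 7.691 CPM, while its paralog Apc2 fell from 22.53 ± 1.273 to 5.748 ± 1.392 CPM. The gene of the ligand Wingless, wg, stayed below 1 CPM in every library.

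Genes of sterol and fatty acid handling, the lipids that the receptors bring in, changed in 16 of 17 tested cases, 11 higher and 5 lower in adult (limma, adjusted p under 0.05), with a median log2 fold change of 0.70. The share called was 94.1%, against 65.1% of all tested genes. The list was chosen with earlier results of these data known, so this share is not a test of the list. Of its 23 genes only these 17 were tested, so the filter also shapes the split between higher and lower. Npc2b, among the falls, was tested through its development libraries alone. Desat1, a fatty acid desaturase gene, rose from 131.4 ± 10.49 to 392.0 ± 10.45 CPM, and S2P, a protease gene of the lipid sensor pathway, fell from 189.4 ± 23.66 to 61.58 ± 6.3 CPM. AcCoAS had a log2 fold change of 4.39 and fabp of -4.24 (limma). The value of fabp is uncertain, as 72.11% of its exonic bases are shared with sea.

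**Figure D5:**
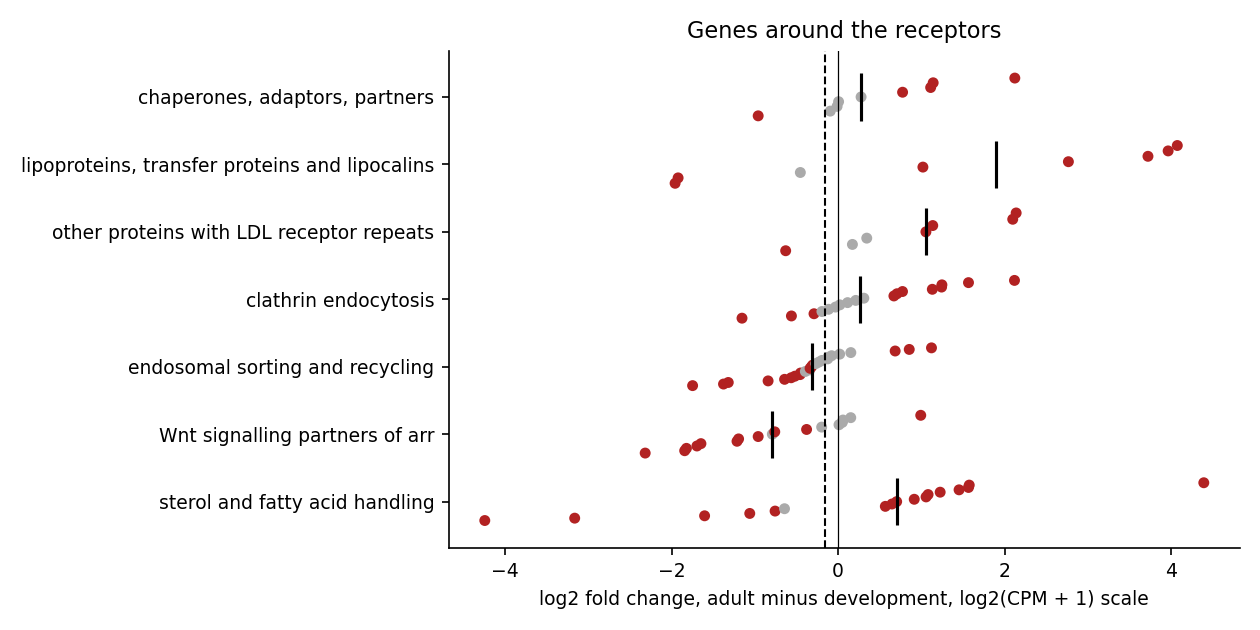
Log2 fold changes (adult minus development, log2(CPM + 1) scale) of the tested genes in 7 lists around the receptors, each point a gene and red for an adjusted p under 0.05. Black bars mark list medians and the dashed line the median of all tested genes at -0.153. The list medians run from -0.79 for Wnt signalling partners to 1.89 for lipoproteins and lipocalins, the latter set largely by genes that passed the filter through 1 group.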

How the data were processed

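RNA was measured in 6 libraries, 3 per group, assigned to groups and replicate numbers by their titles. Values in the table the authors deposited are log2(CPM + 1), as read from the values, since converted libraries sum to 1000000. The submitters' processing notes list STAR 2.4.2a and HTSeq 0.7.1 with no role. The sources used here do not give the build, annotation, filters or strand use. A row without a symbol, at most 9e-05% of any library, was left out. Low values were whole multiples of a step per library, so reads were recovered (100% of values above 0 whole within 0.1 read). Intervals on them cover counting error alone, as reads carry no molecular identifiers.

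Genes with at least 5 CPM in at least 3 libraries were fitted with limma 3.58.1 in R 4.3.3 (trend, group as the only term). Ratios used an exact permutation test (scipy 1.17.1). The code was checked on simulated counts in which 200 genes changed. In the data 65.1% of tested genes were called, so that check does not bear on the calls made here. The pseudocount of 1 understates changes of low genes. Merged exons and coding lengths come from Ensembl release 115, to which 14025 rows were matched. The 6 members and all gene lists were chosen with earlier results of these data known. Named context genes are those with the largest changes, up to 2 per direction and list, with a mean of at least 20 CPM. Genes named beyond this rule, such as Dab, CG8507, Rfabg, fz, fz2 and the marker genes, were chosen after their values were seen. No protein or promoter sequences were used here.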

Additional observations from a re-analysis of the deposited data

How the results depend on the processing

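LRP1 kept its direction and its call in all 18 alternative fits, which covered pseudocount, filter, scaling, variance model, library weights, voom on recovered reads, a replicate block and left-out libraries. LpR1 and arr passed in none of theirs (limma, lowest adjusted p 0.05294 and 0.1193). The log2 fold change of mgl lost its call with no filter (-0.585, adjusted p = 0.1765), median of ratios scaling (-0.435), quantile normalization (-0.467), no trend (-0.585, 0.08842) and array weights (-0.395), and ran from -0.777 to -0.305 over fits without 1 library. That of LpR2 passed with array weights (0.349) and ran from 0.052 to 0.399 without 1 library. In an alternative added after seeing the data, without both libraries numbered 1, mgl was at -0.109 and LpR2 at 0.348. The cause was not tested. Members called lower in adult numbered 2, and 1 in each fit that ended the call of mgl. Members called higher numbered 0, and 1 in each fit in which LpR2 passed. Pairs without overlap ran from 3 to 6 when 1 library was left out, depending on which one. Smaller groups can also separate more readily, and the reason for these differences was not tested. Coding length gave LRP1 shares of 13.55% and 7.88%, by construction. Left unfiltered, yl had an adjusted p of 0.2578 (limma), and 0.08572 with a filter at 1 CPM. An edgeR fit on recovered reads was not run, and limma voom on those reads was run in its place.

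Same-numbered libraries did not deviate together (correlations of deviations from group means over tested genes -0.028, 0.042 and -0.011), and replicate 2 was the number whose libraries correlated best with each other. With the replicate block 4428 genes passed against 4439, LRP1 had a log2 fold change of -0.753 (adjusted p = 0.0001153) and mgl of -0.585 (0.03331), and no call of a member changed. Precision for yl is limited by its 2 to 110 reads.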
